A study of Homo sapiens with 18 samples.

Results

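Abemaciclib and palbociclib were compared directly in CAMA-1 cells. CAMA-1 is an established luminal, oestrogen receptor (ER)-positive breast cancer cell line. The comparison rested on 3 libraries of cells given abemaciclib at 500 nM and 3 of cells given palbociclib at 500 nM, each for 5 days, which were 6 of the 18 libraries of the series. A further 3 CAMA-1 libraries, from cells given an equal volume of the solvent DMSO, served as the reference level. The labels describe all of these cells as parental and wild-type. The study's aim was to learn how Rb shapes transcription when CDK4/6 inhibitors activate it, and the matched dose and time allowed the transcriptomes under the 2 molecules to be set against each other. All genes entered the comparison, and 11053 of 60656 gene rows had enough counts to be tested. One cell line stands for the disease here, and 1 dose and 1 time were measured, so the values describe these exposures and not a dose response.

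Cyclin D and the kinases CDK4 and CDK6 phosphorylate the retinoblastoma protein Rb. While Rb is phosphorylated, E2F factors transcribe the genes needed for S phase, and later the B-MYB, FOXM1 and DREAM components act on the genes of G2 and mitosis. CDK4/6 inhibitors keep Rb unphosphorylated, and loss of E2F target transcripts with arrest in G1 is what they are known for in ER-positive breast cancer. Both molecules are ATP-competitive and share an aminopyrimidine joined to a pyridine that carries a piperazine. In palbociclib the pyrimidine is fused into a pyridopyrimidinone with a cyclopentyl group, whereas abemaciclib has a fluorinated benzimidazole on the pyrimidine. Palbociclib was supplied as the isethionate and abemaciclib as the methanesulfonate.

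The promoters of 3 of the genes described below are shown because their genes stand for the S phase genes, for the mitotic genes and for the genes that both inhibitors raised. Each is 300 bases of the RefSeq record on GRCh38.p14, from 250 bases before the gene's start to 50 after, read on the gene's own strand. Capitals mark the letters searched on both strands, which were an E2F-type set (TTTGGCGC, TTTCGCGC, TTTCCCGC and TTTGGCGG) and the letters TTTGAA of the cell cycle gene homology region (CHR). Neighbouring matches of the E2F-type set may overlap. DTL, a substrate receptor of the CUL4 ubiquitin ligase in S phase, lies at chr1:212035498-212035797 (plus strand, 2 E2F-type matches). MKI67, which encodes the proliferation antigen Ki-67, lies at chr10:128126374-128126673 (minus strand, 2 CHR-type matches). GDF15, a stress-induced cytokine of the TGF-beta family, lies at chr19:18385908-18386207 (plus strand, no match of either kind).
DTL: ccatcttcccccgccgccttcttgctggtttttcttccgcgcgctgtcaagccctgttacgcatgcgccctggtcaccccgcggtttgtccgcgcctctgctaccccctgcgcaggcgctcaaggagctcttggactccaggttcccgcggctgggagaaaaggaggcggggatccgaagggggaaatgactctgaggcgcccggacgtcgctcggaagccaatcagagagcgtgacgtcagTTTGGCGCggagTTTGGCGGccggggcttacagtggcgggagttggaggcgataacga
MKI67: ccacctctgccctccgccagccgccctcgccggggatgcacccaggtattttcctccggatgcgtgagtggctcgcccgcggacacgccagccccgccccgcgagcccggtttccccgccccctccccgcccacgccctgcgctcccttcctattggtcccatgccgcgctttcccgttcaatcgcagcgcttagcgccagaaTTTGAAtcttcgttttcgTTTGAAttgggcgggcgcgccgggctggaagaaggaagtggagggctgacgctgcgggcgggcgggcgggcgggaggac
GDF15: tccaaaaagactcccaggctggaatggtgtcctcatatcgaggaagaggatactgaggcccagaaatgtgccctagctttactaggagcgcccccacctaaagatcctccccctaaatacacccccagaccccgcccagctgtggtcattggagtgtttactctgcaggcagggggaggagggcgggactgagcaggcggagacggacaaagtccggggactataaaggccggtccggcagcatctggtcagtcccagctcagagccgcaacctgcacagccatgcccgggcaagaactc
A match is a description of letters and not a binding site.

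The libraries held between 2308442 and 4146549 counts, so that 1 count was worth less than 1 CPM in each. Levels below are CPM, counts divided by the library total and brought to a common total, scaled by the trimmed mean of M values, and the error given with a difference is its standard error (SE) from the fit. Of the luminal markers, 8 of 8 were tested, and they summed to 6621 to 6653 CPM with abemaciclib, 6869 to 6961 with palbociclib and 5015 to 5320 with DMSO. None of the basal, immune or endothelial markers had enough counts to be tested, and their sums stayed at or below 4.41 CPM in every library. Mesenchymal markers summed to 16.3 to 27.3 CPM over the 9 libraries, with 2 of 6 tested and 3 at 0 in all of them. Mitochondrially encoded genes took 24.8% ± 1.37 of counts with abemaciclib, 23.6% ± 1.15 with palbociclib and 15.7% ± 0.87 with DMSO (SD, n = 3). The inhibitor groups differed in this share by 1.20 percentage points, with an exact two-sided permutation p of 0.2, where 3 against 3 libraries cannot go below 0.1. Fewer cells of a kind and less RNA per cell cannot be told apart in such bulk libraries.

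Tested directly with edgeR's quasi-likelihood F test, 257 of the 11053 genes (2.33%) differed between the inhibitors at a Benjamini-Hochberg adjusted p under 0.05. With abemaciclib 88 genes (0.796%) were higher and 169 (1.53%) lower than with palbociclib. Most differences were modest, with a median size of 0.58 on the log2 scale among these genes, and 47 reached 2-fold, 15 of them higher and 32 lower with abemaciclib. In 253 of the 257 the 3 libraries of one inhibitor lay wholly above those of the other, against 17.8% of all genes tested. The 4 exceptions were SPC25, CCNA2, MSMO1 and RTN4, the last of these named because it is an exception. Set against DMSO, 4457 genes (40.3%) were called with abemaciclib and 4102 (37.1%) with palbociclib. Of the 257 genes, 221 were called against DMSO with abemaciclib, 199 with palbociclib and 11 with neither. Protein-coding genes made up 250 of the 257. The count fell to 154 without abemaciclib replicate 3 and to 151 without palbociclib replicate 1.

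**Figure D1:**
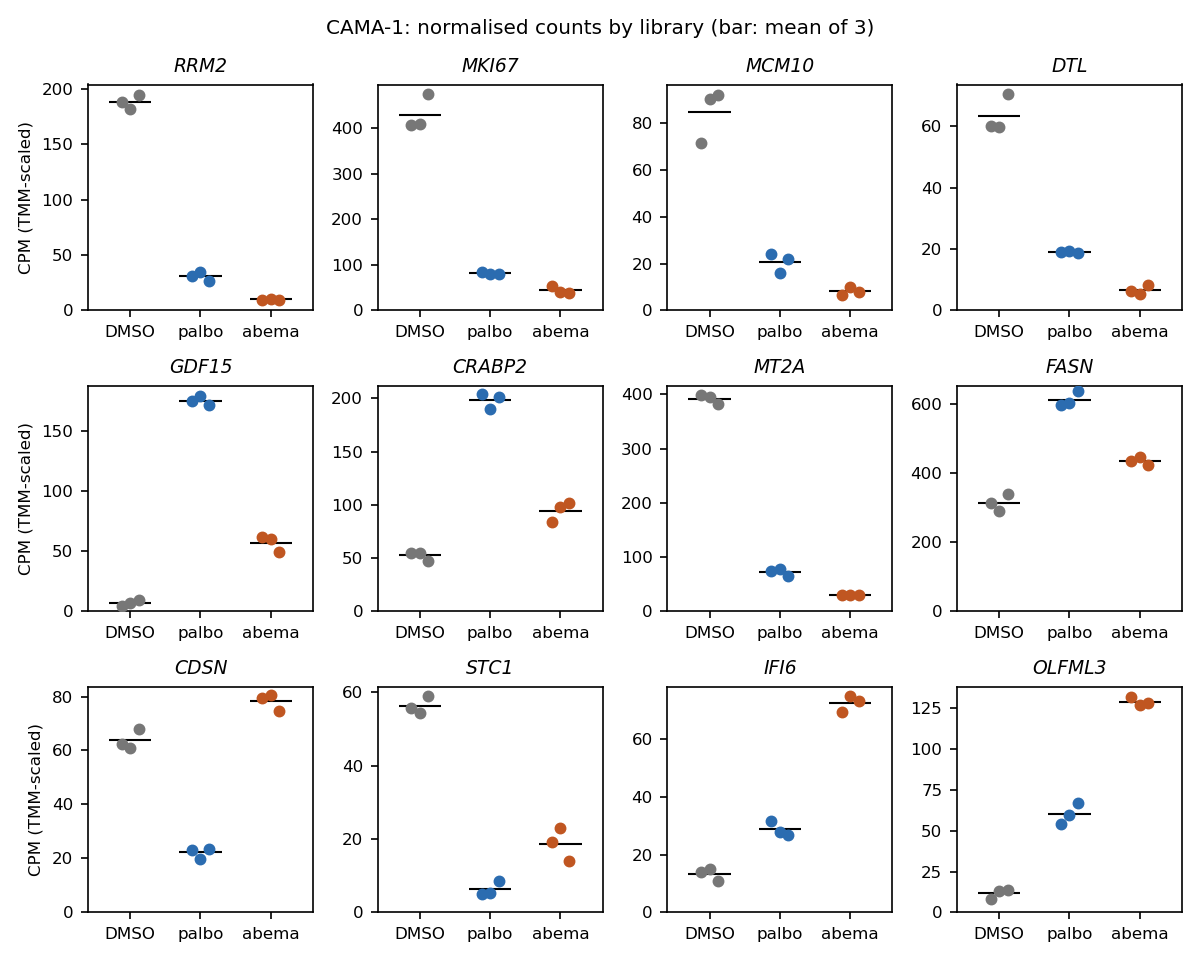
Normalised counts (CPM, linear axes that start at 0) of 12 genes in each CAMA-1 library given DMSO (grey), palbociclib (blue) or abemaciclib (orange), with a bar at the mean of 3 libraries. In all 12 the abemaciclib and palbociclib libraries do not overlap: RRM2 and MKI67 are lowest with abemaciclib, GDF15 is highest with palbociclib, and CDSN, with 74.6 to 80.7 CPM, is higher with abemaciclib.

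Proliferation genes were mostly on the lower side with abemaciclib. In 6 lists, which leave out the histones described further on and cover DNA replication, deoxynucleotide synthesis, mitosis, cell cycle regulators, DNA repair and proliferation-linked chromatin, 44 of 210 tested members were lower and 0 were higher with abemaciclib (20.95%, against 2.33% of all genes). These lists and those below were written by hand with earlier results of these data known. Their shares of called members are therefore not independent of the choice of members. Among the 210, 171 differences were negative and 39 positive, with a median of −0.30 against 0.00056 over all genes tested. Against DMSO the members' median log2 fold change was −1.53 with abemaciclib and −1.20 with palbociclib, 2 comparisons that share their control libraries. In the other 24 lists, 14 of 628 tested members were higher and 32 lower (7.3% called, also above the 2.33% of all genes), and the median was −0.01. Leaving out single libraries gave 28 to 48 lower members of the 6 lists, with 28 each without palbociclib replicate 1 or 2 and 29 without abemaciclib replicate 1. The members not called at this depth were 166 of the 210. Over all 210, called or not, 60 had a 95% interval of the difference inside ±0.5 on the log2 scale.

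In the DNA replication list, 13 of 46 tested members were lower with abemaciclib and 0 higher (28.3% called, against 2.33% of all genes), with a median difference of −0.44. MCM10, which helps to activate the replicative helicase, had 6.41, 10.1 and 7.94 CPM with abemaciclib, 23.9, 15.9 and 21.8 with palbociclib, and 71.8, 90.3 and 92.4 with DMSO. The inhibitor groups did not overlap, and the log2 difference was −1.38 (SE 0.23, adjusted p = 3.8e-05). CLSPN, which encodes the checkpoint mediator claspin, had 21.9, 22.04 and 22.9 CPM with abemaciclib and 43.98, 46.03 and 51.3 with palbociclib, a difference of −1.07 (SE 0.13, adjusted p = 2.4e-07). Of the MCM2 to MCM7 helicase subunits, MCM2 (−0.80), MCM5 (−0.77), MCM6 (−0.64), MCM7 (−0.64) and MCM3 (−0.43) were called lower. PCNA, the sliding clamp of the polymerases, had 15.6 to 20.6 CPM with abemaciclib and 28.1 to 38.1 with palbociclib (−0.95, SE 0.17, adjusted p = 0.00017). DNMT1, the maintenance DNA methyltransferase, was lower by a smaller margin (−0.37, SE 0.08, adjusted p = 0.0081). DTL had 6.41, 5.29 and 8.25 CPM with abemaciclib, 19.1, 19.4 and 18.7 with palbociclib and 60.1, 59.9 and 70.3 with DMSO, and its difference of −1.49 (SE 0.22, adjusted p = 6.9e-06) was among the 10 largest falls. DTL overlaps genes on the opposite strand, and the strand setting of the counting is not given in the sources used here. FAM111B, a protease gene that is transcribed in S phase, lay at 16.5 to 19.4 CPM against 46.8 to 54.1 (−1.56, SE 0.14, adjusted p = 3.2e-11).

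E2F-type letters were present in the promoters of 26 of the 40 DNA replication genes that have a window in the RefSeq table (65%), against 7.30% of the 8672 tested genes with one and 4.05% of all 27305 genes with one. For TTTGAA the order was different, with 2.50% of DNA replication promoters, 12.9% of tested genes and 71.7% of the mitosis list (38 of 53). The genes called lower with abemaciclib held E2F-type letters in 16.1% and TTTGAA in 24.8%, and those called higher in 3.08% and 15.4%. No test was made of these shares.

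The deoxynucleotide synthesis list held the called proliferation gene with the largest difference among those with no overlap and an average of at least 10 counts. RRM2, the cell cycle-dependent subunit of ribonucleotide reductase (ENSG00000171848.15, chromosome 2, 10120698 to 10211725), had 9.61, 10.6 and 9.84 CPM with abemaciclib, 31.0, 34.5 and 27.0 with palbociclib and 188, 182 and 195 with DMSO. The 3 groups did not overlap, and RRM2 was 3.11-fold higher with palbociclib than with abemaciclib (log2 difference −1.64, SE 0.17, adjusted p = 2.5e-09). TK1, the S phase thymidine kinase, was lower by −1.27 (SE 0.26, adjusted p = 0.0016). DUT, which removes dUTP, was lower by −0.32 (SE 0.08, adjusted p = 0.021), a call that was lost without any of 5 single inhibitor libraries. These 3 were the called members of 13 tested (23.1%, against 2.33% of all genes).

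In the mitosis list, 12 of 62 tested members were lower with abemaciclib and 0 higher (19.35% called, against 2.33% of all genes), with a median difference of −0.35. MKI67 (chromosome 10, 128096659 to 128126423) had 53.4, 39.7 and 39.0 CPM with abemaciclib, 83.8, 79.9 and 80.4 with palbociclib and 406, 410 and 475 with DMSO. Each abemaciclib library was below each palbociclib library, and the log2 difference was −0.87 (SE 0.11, adjusted p = 7.4e-07). TOP2A, the topoisomerase of mitotic chromosomes, had 304, 339 and 351 CPM against 451, 467 and 450 (−0.46, SE 0.07, adjusted p = 5.8e-06). Among genes of the kinetochore and the spindle checkpoint, NDC80 (−1.12), BUB1B (−0.85) and CENPF (−0.41) were lower, as were the securin gene PTTG1 (−0.53) and the chromosomal passenger gene BIRC5 (−0.57). CCNB1, the mitotic cyclin, overlapped between the inhibitors and was not called (−0.31, 95% interval −0.62 to −0.00).

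Among the cell cycle regulators, 5 of 39 tested members were lower and 0 higher (12.8% called, against 2.33% of all genes), with a median difference of −0.09. The 5 were CCNE2 (−1.40), CCNA2 (−1.36), PKMYT1 (−0.76), E2F1 (−0.69) and MYBL2 (−0.40). CCNE2 and CCNA2 encode the cyclins that partner CDK2, E2F1 encodes an activator E2F, PKMYT1 an inhibitory kinase of CDK1 and MYBL2 the B-MYB factor. CCNA2 had 3.20, 6.61 and 2.86 CPM with abemaciclib and 9.04, 14.8 and 6.59 with palbociclib, so that the groups touched, and its call was lost without abemaciclib replicate 1 or 3 or palbociclib replicate 2. The calls of CCNE2 and E2F1 were lost without 2 single libraries each and that of PKMYT1 without 5 and with DESeq2. The list's count of 5 fell to 0 without abemaciclib replicate 1, to 1 without palbociclib replicate 2, to 2 each without abemaciclib replicate 3 or palbociclib replicate 1 and to 3 with DESeq2. CCNA2, CCNE2, PKMYT1 and CDK4 overlap genes on the opposite strand. CDK4, which encodes a target kinase of both inhibitors, and RB1, which encodes its substrate Rb, did not differ detectably. CDK4 had 82.3 to 99.0 CPM against 85.7 to 102 (−0.02, 95% interval −0.23 to 0.18) and RB1 42.2 to 50.2 against 40.9 to 47.2 (0.05, −0.22 to 0.31). CCND1, which encodes cyclin D1 and had 576 to 614 CPM with DMSO, lay at 1438 to 1524 with abemaciclib and 1429 to 1505 with palbociclib, a difference of −0.01 with a 95% interval of −0.13 to 0.10. CDKN1A, the p21 inhibitor gene, had 34.8 to 44.4 CPM against 28.8 to 37.6 and was not called (0.35, 0.03 to 0.67). CDK1, the mitotic kinase gene, was not called either (−0.54, −0.93 to −0.16, adjusted p = 0.14).

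The DNA repair list had 5 lower members of 29 tested and 0 higher (17.2% called, against 2.33% of all genes). The lower members were BRCA1 (−0.77) and BRCA2 (−0.78) of homologous recombination, the exonuclease gene EXO1 (−1.79), the mismatch repair gene MSH6 (−0.35) and ATAD2 (−0.60), a chromatin ATPase. EXO1 rested on few counts, with 0.952 to 1.32 CPM against 2.44 to 5.55, and its call was lost in 8 of 15 other settings. The call of BRCA2 was lost without 3 single libraries. The list's count was 2 without palbociclib replicate 2 and 3 with DESeq2, with the replicate block or without abemaciclib replicate 1 or 3, DMSO replicate 1 or palbociclib replicate 1. Of the proliferation-linked chromatin and nuclear lamina genes, 6 of 22 were lower and 0 higher (27.3% called), and 3 were lower without abemaciclib replicate 3 or palbociclib replicate 1. HELLS, a chromatin remodeller, had 27.8 to 36.2 CPM against 56.5 to 79.6 (−1.01, SE 0.13, adjusted p = 1.3e-06). LMNB1, which encodes lamin B1, had 16.8 to 23.2 CPM against 31.2 to 44.5 (−0.93, SE 0.15, adjusted p = 4.2e-05). DEK, a chromatin protein gene outside the lists, had 154, 150 and 148 CPM with abemaciclib and 261, 277 and 256 with palbociclib, with 733 to 823 in DMSO (−0.81, SE 0.07, adjusted p = 1.6e-10). Among replication-dependent histones, of which 15 of 54 were tested, H4C3 was lower (−0.79) and H3C10 higher (0.89), and the call of H3C10 was lost in 8 of 16 other settings. Called members made up 13.3% of those tested, against 2.33% of all genes. Unlike in the 6 proliferation lists, 11 of the 15 differences were positive and 4 negative, with a median of 0.27. Against DMSO the histone median was 0.73 with abemaciclib and 0.29 with palbociclib.

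**Figure D2:**
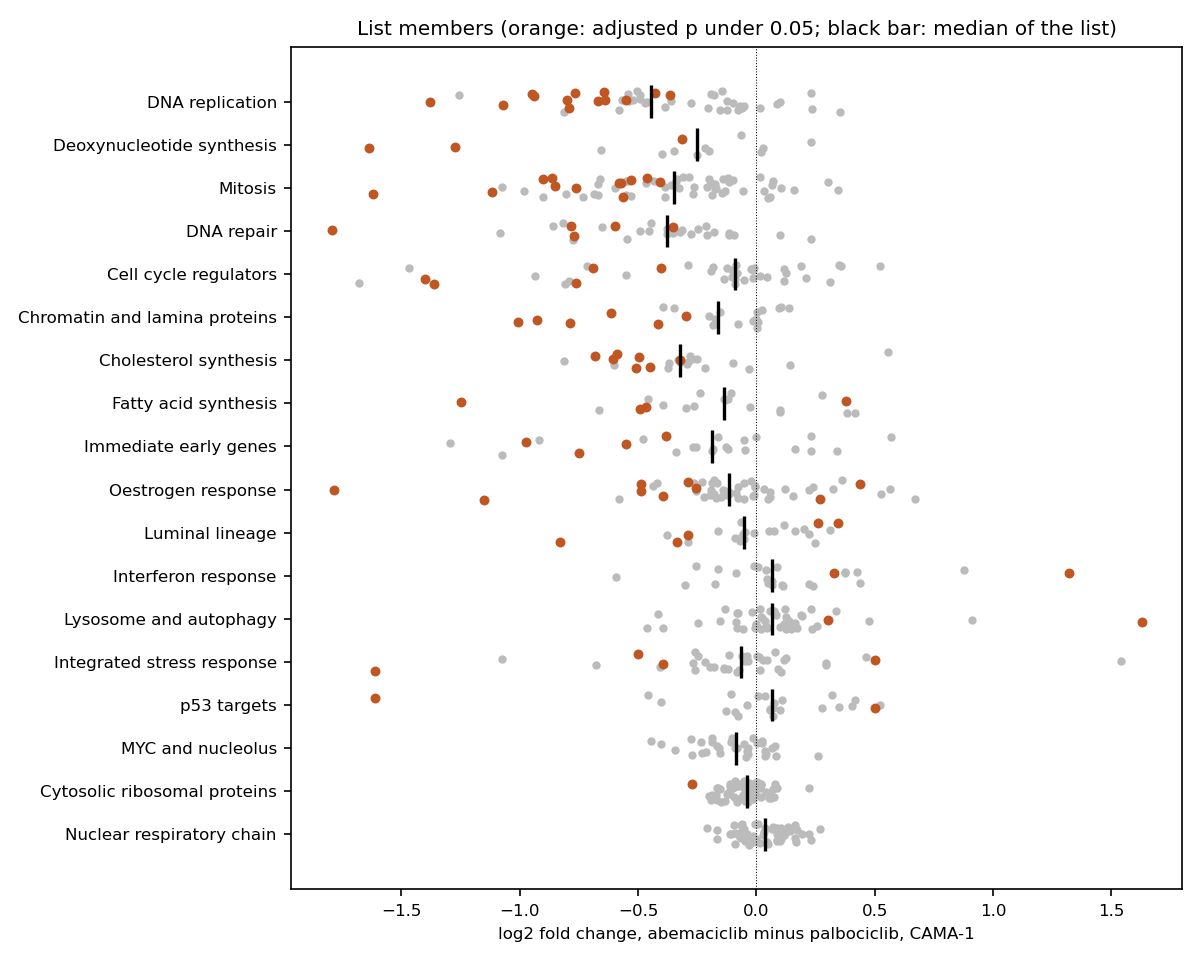
Each point is the fitted log2 difference, abemaciclib minus palbociclib, of 1 tested member of 18 gene lists in CAMA-1, in orange where the adjusted p was under 0.05, with a black bar at the median of the list (vertical jitter carries no value). The orange points of the 6 proliferation lists all lie left of 0, and the DNA replication median is −0.44, whereas the medians of the ribosomal protein and respiratory chain lists are −0.04 and 0.03.

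Some sterol synthesis genes were lower with abemaciclib than with palbociclib. These genes convert acetyl-CoA to cholesterol and are transcribed by SREBP-2 when sterols are low. Of 23 tested members, 7 were lower with abemaciclib and 0 higher (30.4%, against 2.33% of all genes), 21 differences were negative, and the median was −0.32. Against DMSO the median was 0.10 with abemaciclib and 0.47 with palbociclib. The called members were ACAT2 (−0.68), INSIG1 (−0.60), TM7SF2 (−0.59), FDFT1 (−0.51), MSMO1 (−0.50), EBP (−0.45) and FDPS (−0.32). INSIG1, the sterol-responsive retention factor of SREBP processing, had 41.4, 37.5 and 34.6 CPM with abemaciclib, 53.02, 59.1 and 61.7 with palbociclib and 32.8 to 46.2 with DMSO. The abemaciclib libraries thus overlapped those of DMSO and the palbociclib libraries lay above both. MSMO1, a C4-demethylation oxidase, had 68.4, 85.1 and 60.3 CPM against 109, 84.0 and 105 and overlapped by 1 library on each side. EBP, the sterol isomerase, was below its DMSO level of 179 to 185 CPM under both, with 72.4 to 85.1 and 102 to 109 CPM. ACAT2, the cytosolic thiolase, overlaps another gene on the opposite strand. Without abemaciclib replicate 3 only 2 members were called lower and without palbociclib replicate 3 3 were, while the list's median stayed between −0.37 and −0.29 in every setting.

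**Figure D3:**
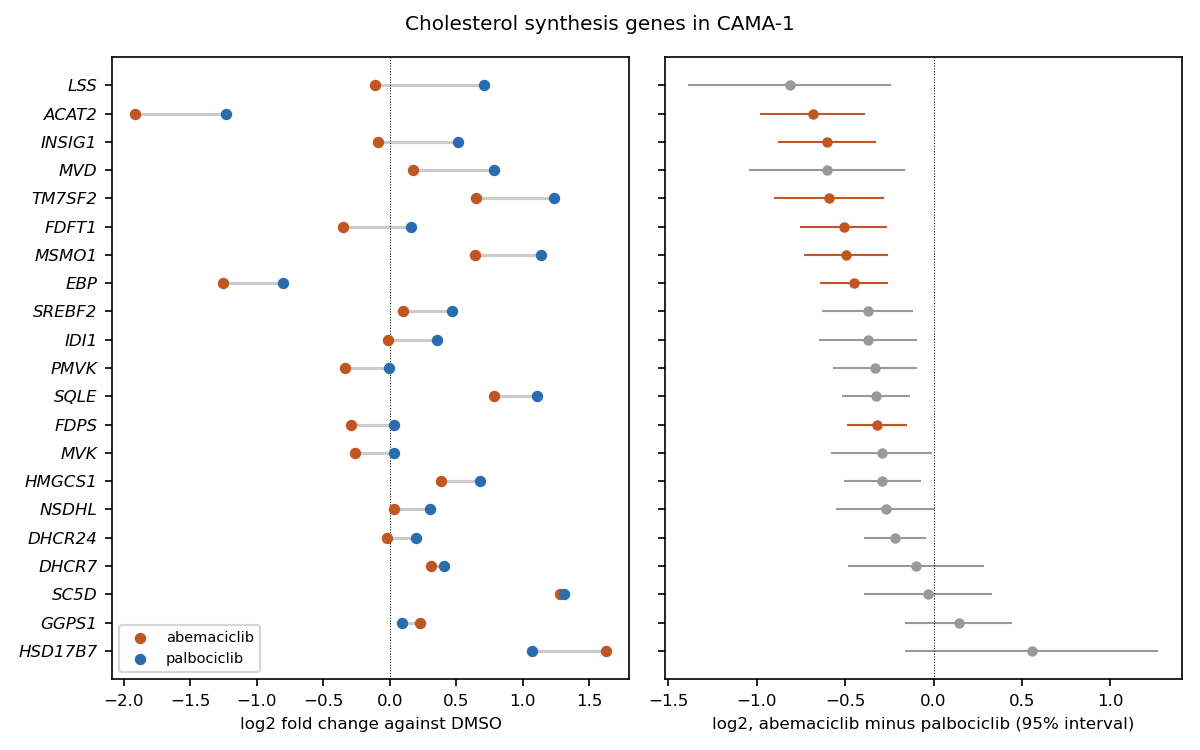
Tested cholesterol synthesis genes in CAMA-1: left, the log2 fold change against DMSO with abemaciclib (orange) and palbociclib (blue); right, the log2 difference between the inhibitors with its 95% interval, orange where the adjusted p was under 0.05. The abemaciclib point lies left of the palbociclib point in every gene drawn except GGPS1 and HSD17B7, and 7 genes are called.

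In the fatty acid list 3 of 20 tested members were lower with abemaciclib and 1 was higher (20% called, against 2.33% of all genes). FASN, the fatty acid synthase gene, had 434, 447 and 422 CPM with abemaciclib, 596, 602 and 635 with palbociclib and 291 to 340 with DMSO (−0.49, SE 0.07, adjusted p = 2.1e-06). Every library of both inhibitors was above DMSO, with the palbociclib libraries highest. SCD, the stearoyl-CoA desaturase gene, had 229 to 235 CPM against 272 to 353 (−0.47, SE 0.08, adjusted p = 0.00024). FADS1, a fatty acid desaturase gene that overlaps FADS2, was lower by −1.25 (SE 0.20, adjusted p = 4.1e-05). ACSL3, an acyl-CoA synthetase of lipid droplets, was the member that was higher (0.38, SE 0.07, adjusted p = 0.0011).

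No difference between the inhibitors was detected for ESR1, PGR and GREB1, whereas TFF1, KRT18 and 7 other oestrogen response genes differed. ESR1 had 84.9, 94.8 and 94.9 CPM with abemaciclib, 93.8, 109 and 80.1 with palbociclib and 39.9 to 61.0 with DMSO, and the difference was −0.05 with a 95% interval of −0.29 to 0.19. PGR, which encodes the progesterone receptor (−0.05, −0.41 to 0.31), and GREB1, an ER coactivator (0.05, −0.16 to 0.26), overlapped between the inhibitors. Of 53 tested oestrogen response genes, 2 were higher with abemaciclib and 7 lower (17.0% called, against 2.33% of all genes), and the median was −0.11. Leaving out single libraries gave 0 to 5 higher, with 0 without abemaciclib replicate 1 or palbociclib replicate 1 or 2 and 5 without DMSO replicate 3, and 3 lower without abemaciclib replicate 3 and 4 without palbociclib replicate 1. TFF1, a trefoil factor secreted by luminal cells, had 1191, 1129 and 1071 CPM with abemaciclib against 929.8, 895 and 989.6 with palbociclib, and 247 to 269 with DMSO (0.27, SE 0.06, adjusted p = 0.0074). SIAH2, a ubiquitin ligase gene, was the other higher member (0.44, SE 0.11, adjusted p = 0.016). The insulin-like growth factor binding protein IGFBP4 had 86.4 to 103 CPM against 133 to 140 (−0.49, SE 0.10, adjusted p = 0.0017), and abemaciclib libraries lay within the DMSO range of 81.9 to 106. KCNK5, a potassium channel gene, was lower by −0.49 and AGR2, a protein disulfide isomerase of secretory cells, by −1.15. KRT18 was lower by −0.255, and it overlaps KRT8 on the opposite strand. The calls of TFF1 and KRT18 were lost without 3 single libraries each and those of AGR2 and XBP1 without 1 each.

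Luminal lineage genes moved both ways, with 2 of 24 tested members higher with abemaciclib and 3 lower (20.8% called, against 2.33% of all genes). Without any one inhibitor library 1 was higher, without DMSO replicate 3 4 were, and without abemaciclib replicate 3 1 was lower. ELF3, an epithelial ETS factor, had 54.7, 56.9 and 58.1 CPM with abemaciclib and 105, 102 and 93.9 with palbociclib (−0.83, SE 0.11, adjusted p = 9.3e-07). MUC1, the membrane mucin (−0.34), and XBP1, a factor of the secretory pathway (−0.29), were also lower. TFAP2A, the AP-2 alpha factor, had 944 to 956 CPM against 720 to 771 (0.34, SE 0.07, adjusted p = 0.002) and ZNF703 was higher by 0.26. Of 15 tested Rb-linked corepressor genes 0 were called by edgeR, and 11 had a 95% interval inside ±0.5, against 44.9% of all genes. KDM5A, a histone H3K4 demethylase that binds Rb, had 88.6 to 105 CPM against 86.0 to 108 (−0.06, −0.27 to 0.15). CRABP2, which carries retinoic acid to its receptor, was among the 5 smallest p of the lower genes: it had 83.6, 97.9 and 102 CPM with abemaciclib, 204, 190 and 201 with palbociclib and 47.7 to 55.2 with DMSO (−1.08, SE 0.09, adjusted p = 3.2e-11).

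GDF15 gave the smallest adjusted p of the comparison. It had 62.0, 60.4 and 49.8 CPM with abemaciclib, 175, 180 and 172 with palbociclib and 4.65, 6.65 and 9.26 with DMSO. Both inhibitors raised it, and it was 3.06-fold higher with palbociclib than with abemaciclib (log2 difference −1.61, SE 0.11, adjusted p = 3.8e-14). GDF15 is a target both of p53 and of the integrated stress response, in which ATF4 and CHOP are translated when eIF2 is phosphorylated. Few other members of those lists were called. Of 38 tested stress response genes 3 were lower with abemaciclib (GDF15 and the amino acid transporter genes SLC1A5, −0.50, and SLC7A5, −0.40) and 1 was higher (SESN2, a stress-inducible inhibitor of mTORC1 signalling, 0.50), with a median of −0.07. Of 24 tested p53 targets, GDF15 was lower and SESN2 higher, with a median of 0.06. Called members made up 10.5% of the tested stress response genes and 8.33% of the tested p53 targets, against 2.33% of all genes. The calls of SESN2 and SLC7A5 were lost without 5 single inhibitor libraries each.

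Of 23 tested members of the NRF2 and iron list, 2 were lower with abemaciclib than with palbociclib, and both of them were below their DMSO level under either inhibitor. MT2A, a metallothionein, had 30.4, 30.4 and 29.8 CPM with abemaciclib, 74.0, 78.5 and 64.8 with palbociclib and 383 to 398 with DMSO (−1.26, SE 0.11, adjusted p = 4.5e-11). NQO1, a quinone reductase that both NRF2 and the aryl hydrocarbon receptor regulate, had 120 to 141 CPM against 202 to 217, with 328 to 356 in DMSO (−0.67, SE 0.08, adjusted p = 2.0e-07). The list's median was −0.03, 0 members were higher, and 8.70% of tested members were called, against 2.33% of all genes.

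Immediate early genes are induced by growth factor and stress signals within minutes. With abemaciclib 4 of 24 tested members were lower and 0 higher (16.7% called, against 2.33% of all genes), with a median of −0.19. IER3 had 1634.5, 1448 and 1498 CPM with abemaciclib, 2278, 2229 and 2206 with palbociclib and 671 to 729 with DMSO (−0.55, SE 0.06, adjusted p = 5.0e-09). EGR1, a zinc finger factor, had 241, 209 and 133 CPM against 335, 364 and 281 (−0.75, SE 0.12, adjusted p = 3.1e-05), and DESeq2 did not call it (adjusted p = 0.11). FOS, a component of AP-1, had 20.6, 22.04 and 13.0 CPM against 41.1, 32.4 and 34.7 (−0.97, SE 0.20, adjusted p = 0.0017). The third abemaciclib library was the lowest of its group for both EGR1 and FOS. JUND (−0.38) lost its call without 4 single libraries. HES1, a Notch target and transcriptional repressor, had 365 to 373 CPM against 497 to 618 (−0.59, SE 0.08, adjusted p = 8.5e-07).

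The genes that were higher with abemaciclib belonged to fewer of the lists. CDSN, which encodes corneodesmosin, an adhesive protein of the cornified epidermis, had 79.3, 80.7 and 74.6 CPM with abemaciclib, 23.2, 19.98 and 23.6 with palbociclib and 62.5, 60.9 and 68.1 with DMSO. It was 3.51-fold higher with abemaciclib (log2 difference 1.81, SE 0.13, adjusted p = 1.6e-13), and it was palbociclib that moved it far from DMSO (−1.52, against 0.29 with abemaciclib). STC1, the secreted glycoprotein stanniocalcin-1, was below its DMSO level of 54.3 to 58.9 CPM under both, with 14.0 to 22.9 with abemaciclib and 5.13 to 8.67 with palbociclib (1.57, SE 0.24, adjusted p = 1.3e-05). SLC7A8, a neutral amino acid transporter gene, had 198 to 207 CPM with abemaciclib, 121 to 134 with palbociclib and 154 to 163 with DMSO, so that the inhibitors lay on opposite sides of it (0.66, SE 0.08, adjusted p = 2.4e-07). GPNMB, a lysosomal glycoprotein gene, had 7.21 to 9.70 CPM against 2.44 to 2.90 (1.63, SE 0.38, adjusted p = 0.0069), a call that was lost without palbociclib replicate 1.

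IFI6, OLFML3, PTGES and CLU were raised over DMSO by both inhibitors and were higher with abemaciclib than with palbociclib. IFI6, an interferon-stimulated gene of mitochondria and endoplasmic reticulum, had 69.2, 74.9 and 73.0 CPM with abemaciclib, 31.8, 27.8 and 26.7 with palbociclib and 10.9 to 15.1 with DMSO (1.32, SE 0.14, adjusted p = 3.6e-09). Of 25 tested interferon response genes, IFI6 and BST2, the viral tether tetherin (0.33), were higher and 0 lower, with a median of 0.07. Called members made up 8% of those tested, against 2.33% of all genes. The call of BST2 was lost without abemaciclib replicate 1 or 2 or palbociclib replicate 2 or 3. B2M, the light chain of MHC class I, was the 1 called gene of 11 tested in antigen presentation (9.09%, against 2.33% of all genes). Its difference was 0.26 (adjusted p = 0.046), and its call was lost in 11 of 16 other settings. OLFML3, a secreted olfactomedin-domain protein gene, had 132, 127 and 128 CPM with abemaciclib, 54.0, 59.4 and 66.9 with palbociclib and 7.98 to 13.8 with DMSO (1.11, SE 0.11, adjusted p = 2.5e-09). PTGES, the inducible prostaglandin E synthase gene, had 204 to 211 CPM against 113 to 127, with 11.6 to 13.0 in DMSO (0.79, SE 0.09, adjusted p = 1.2e-08). CLU, which encodes the chaperone clusterin, had 2093 to 2198.5 CPM against 1570.2 to 1628.5 (0.43, SE 0.06, adjusted p = 1.1e-06). MAP1B, a microtubule-associated protein gene, had 9.61, 12.8 and 10.2 CPM with abemaciclib, 2.93, 2.90 and 3.12 with palbociclib and 2.66 to 5.22 with DMSO (1.84, SE 0.38, adjusted p = 0.0015), and no difference between palbociclib and DMSO was detected for it (−0.46, adjusted p = 0.40). Its difference between the inhibitors was the largest rise among genes with a symbol, no overlap and an average of at least 10 counts.

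Much of the transcriptome did not separate the inhibitors, and how closely could be measured for 4958 genes (44.9%) whose 95% interval lay inside ±0.5 on the log2 scale. Of these 4958, 44 were called, so an interval inside that bound does not mean that no difference was detected. Of 56 tested nuclear genes of the respiratory chain 0 were called and 55 lay inside that interval. Of 76 tested cytosolic ribosomal protein genes 1 was called lower (RPS21, −0.27, 1.32% of those tested) and 75 lay inside it. The mitochondrially encoded genes had 15 members inside the interval and 1 higher member of 15, MT-ND1 (0.25, adjusted p = 0.013), which is 6.67% called against 2.33% of all genes. The count of higher members was 0 without abemaciclib replicate 1 or 3 or palbociclib replicate 1 or 3, 3 without palbociclib replicate 2, 6 without abemaciclib replicate 2 or with the inhibitor libraries alone, and 7 without DMSO replicate 3 or without the filter. Of 34 tested genes of MYC and the nucleolus, 26 of glucose use, 14 apoptosis regulators, 11 Wnt targets and 18 genes of tight junctions and adhesion, 0 were called in each by edgeR, and no more than 1 in each direction in any other setting. Intervals inside ±0.5 were found for 24, 17, 6, 4 and 14 of them in that order, so that the apoptosis and Wnt lists were mostly not resolved at this depth. GAPDH, a glycolytic enzyme gene (0.01, −0.11 to 0.14), and SOX4, an SRY-related factor gene (0.10, −0.01 to 0.22), give the precision reached by well-covered genes. SOX4 had 753 to 807 CPM with DMSO and lay at 2490.2 to 2634 with abemaciclib and 2239.8 to 2512 with palbociclib.

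The same contrast was measured in ZR-75-1, the other ER-positive line of the series, with 3 libraries of each inhibitor at the same dose and time. There 1451 of 11017 genes (13.2%) were called. Of the 257 genes called in CAMA-1, 125 were also called in the same direction in ZR-75-1, which is 48.6% of the CAMA-1 genes and 8.61% of those of ZR-75-1. A further 14 were called in the opposite direction, and 19 of the 257 were not tested in ZR-75-1. The difference between the lines was tested as an interaction, which called 336 of 11987 genes (2.80%) and 74 of the 257. These 74 were picked partly by the same CAMA-1 libraries, so that share is not independent of the choice of genes.

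**Figure D4:**
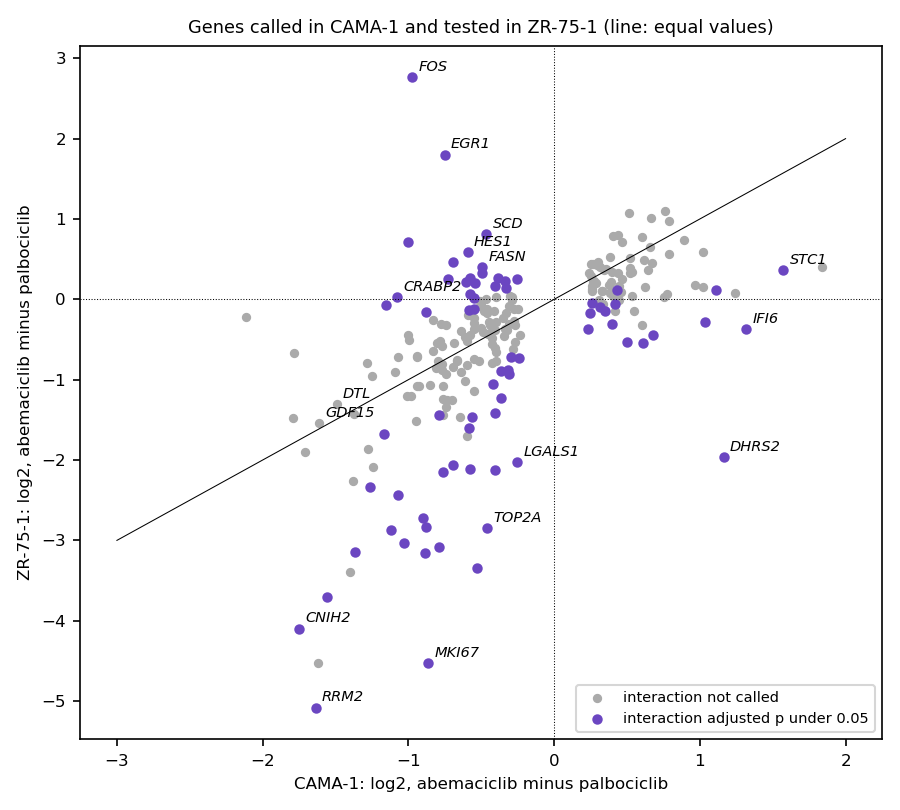
Log2 difference, abemaciclib minus palbociclib, in CAMA-1 (horizontal) and ZR-75-1 (vertical) for the 238 genes called in CAMA-1 and tested in ZR-75-1, purple where the interaction had an adjusted p under 0.05, with a line at equal values. RRM2 and MKI67 lie far below the line at −5.08 and −4.52 in ZR-75-1, FOS and EGR1 lie in the upper left corner at 2.77 and 1.80, and GDF15 and DTL lie close to the line.

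In both lines the called proliferation genes were lower with abemaciclib, and the median difference was smaller in CAMA-1. The median of the 6 lists was −0.30 in CAMA-1 and −0.78 in ZR-75-1, where 131 of 208 tested members were called lower and 0 higher, and the interaction was called for 52 members. MKI67 differed by −0.87 in CAMA-1 and by −4.52 in ZR-75-1 (interaction −3.66, adjusted p = 2.8e-22), and TOP2A by −0.46 and −2.85 (interaction −2.38, adjusted p = 2.8e-28). In ZR-75-1 MKI67 had 5.42 to 13.1 CPM with abemaciclib and 180 to 204 with palbociclib. For MCM10 (interaction −0.88, adjusted p = 0.19), DEK (−0.04, adjusted p = 0.96) and GDF15 (0.07, adjusted p = 0.95) no difference between the lines was detected in this contrast. GDF15 moved the other way from DMSO in ZR-75-1, where it had 102 to 131 CPM with DMSO, 11.2 to 17.0 with abemaciclib and 35.4 to 43.3 with palbociclib.

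Opposite directions in the lines were seen for some lipid and immediate early genes. FOS was lower with abemaciclib in CAMA-1 (−0.97) and higher in ZR-75-1 (2.77, interaction 3.74, adjusted p = 9.4e-11). In ZR-75-1 FOS had 32.7, 40.3 and 45.5 CPM with abemaciclib and 2.74, 6.94 and 7.80 with palbociclib. EGR1 (interaction 2.55, adjusted p = 2.3e-11) and HES1 (1.18, adjusted p = 4.3e-12) reversed in the same sense. The ZR-75-1 DMSO libraries were widely spread for FOS (19.3, 24.98 and 3.73 CPM) and EGR1 (141, 234 and 58.3), but not for HES1 (155 to 179). The inhibitor libraries of FOS and EGR1 did not overlap in ZR-75-1. The spread among untreated replicates still limits what the reversal of FOS and EGR1 can show. SCD (interaction 1.28), FASN (0.90) and MSMO1 (0.83) were also lower with abemaciclib in CAMA-1 and higher in ZR-75-1. The median of the cholesterol list was −0.32 in CAMA-1 and 0.18 in ZR-75-1, where 4 members were called in each direction, and 5 of its members were called in the interaction. DHRS2, a short-chain dehydrogenase gene, had 32.2 to 46.2 CPM with abemaciclib and 16.4 to 18.8 with palbociclib in CAMA-1, and 3.86 to 11.3 against 21.1 to 35.04 in ZR-75-1 (interaction −3.12, adjusted p = 5.7e-11).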

How the data were processed

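RNA from 18 cultures (CAMA-1 and ZR-75-1, each with DMSO, abemaciclib or palbociclib, n = 3) was made into 3′ mRNA libraries. The study's methods describe the replicates as independent biological replicates. The deposited values are raw counts per gene: the authors trimmed reads with BBDuk, aligned them with STAR 2.7.5b to hg38 and assigned them with featureCounts 2.0.1 to GENCODE release 35. The labels and the methods name different strand versions of the kit, and the counting strand, the handling of multi-mapping reads and any molecular identifiers are not given in the sources used here.

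Genes were kept by edgeR's filterByExpr (edgeR 4.0.16, R 4.3.3), which left 99.6% of CAMA-1 counts, libraries were scaled by the trimmed mean of M values, and one quasi-likelihood model was fitted to the 9 CAMA-1 libraries, with abemaciclib minus palbociclib as the contrast, Benjamini-Hochberg adjustment over all 11053 genes and a threshold of 0.05. The biological coefficient of variation was 8.12%. The 9 ZR-75-1 libraries were fitted likewise, and the interaction was fitted on all 18. Intervals are 95% t intervals from the fit. One pair of compounds was compared, so no adjustment over pairs was needed. DESeq2 1.42.0, other scalings, no filter, the inhibitor libraries alone, a replicate block and single libraries left out were alternatives. The scripts were tested on simulated data.

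Same-numbered libraries did not deviate together. No 2 libraries of a group held identical values or agreed within sampling noise. Gene names came from a name table matching 60445 of 60656 identifiers, and gene coordinates from GENCODE release 44 on GRCh38. The named genes were chosen as the 10 largest rises and falls and the 5 smallest p in each direction (called, at least 10 counts on average, no overlap), up to 4 called members per list, a set of cell cycle and ER genes, the 3 smallest interaction p in each direction and the 5 narrowest intervals among genes changed 2-fold by both inhibitors. Some of these genes are counted but not described. They include HOPX, CHI3L2 and MOGAT2 of the 10 largest rises. Of the 10 largest falls they include CKMT2-AS1, SCNN1A, MAB21L4 and YPEL1. Any other gene was named after its values were seen. Some members of the cholesterol list are counted but not reported here by name or drawn. The members and the 30 hand-written lists were chosen with earlier results of these data known.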

Additional observations from a re-analysis of the deposited data

Results flagged for a closer look

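The difference between the inhibitors was not the same in CAMA-1 and ZR-75-1 for 39 of the named genes, by the interaction in edgeR's quasi-likelihood test over all 18 libraries (adjusted p under 0.05 over 11987 genes). Over all genes tested the interaction called 336 of 11987 (2.80%). The named genes were picked partly by their interaction p and by their CAMA-1 difference. Their count is therefore not independent of the choice of genes. Each value below is the log2 difference measured in ZR-75-1 less the one measured in CAMA-1.

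For proliferation genes the values were negative: MKI67 −3.66, RRM2 −3.44, TOP2A −2.38, HMGB2 −2.30, FAM111B −2.15, CCNA2 −1.78, CENPF −1.72, CKAP2L −1.38, CLSPN −1.36, CDK1 −1.30, CCNB1 −0.85, H4C3 −0.64 and DUT −0.56. In each of these abemaciclib gave the lower value in both lines, and CDK1 and CCNB1 were called in ZR-75-1 but not in CAMA-1. CDKN1A, at −1.79, was not called in CAMA-1 (0.35) and was lower with abemaciclib in ZR-75-1 (−1.44).

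The value was also negative for DHRS2 (−3.12) and SESN2 (−1.03), which were higher with abemaciclib in CAMA-1 and lower in ZR-75-1. It was −4.05 for GPNMB, which had too few counts for the test in ZR-75-1 alone, −1.69 for IFI6, −1.20 for STC1 and −0.31 for CLU. Among genes lower with abemaciclib in CAMA-1 it was −2.35 for CNIH2, −1.77 for LGALS1, −1.07 for MT2A and −0.86 for MGP. PGR, not called in CAMA-1, had −0.58.

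Positive values were found for FOS (3.74), EGR1 (2.55), SCD (1.28), HES1 (1.18), FASN (0.90), MSMO1 (0.83), MUC1 (0.57) and KRT18 (0.51), which were called lower with abemaciclib in CAMA-1 and higher in ZR-75-1. CRABP2 (1.11), AGR2 (1.09), INSIG1 (0.82), JUND (0.66) and IGFBP5 (0.48) were called lower in CAMA-1. SOX4 (0.41) was not called there.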

How the results depend on the processing

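None of the 84 named genes that were called changed direction in the 16 other settings, whereas the fitted difference crossed 0 for 10 that were not called, at sizes up to 0.37 on the log2 scale. Of the called genes, 50 were called in every setting that could test them and 34 lost the call in at least 1, and 3 of 20 that were not called were called in some. The count of 257 became 187 with DESeq2, 255 with relative log expression scaling, 269 with upper-quartile scaling, 290 without the filter, 272 without mitochondrial genes and 355 with the inhibitor libraries alone, and leaving out single libraries gave 151 to 379. With the inhibitor libraries alone 56.6% of calls were lower with abemaciclib, against 65.8% in the fit to 9 libraries. Same-numbered libraries shared only a number, and a fit with the replicate number as a block gave 233 calls. In ZR-75-1 DESeq2 called 898 genes. The cause was not tested. The share of mitochondrial counts differed by 1.20 percentage points over all counts and over those of tested genes. The median SE of a difference was 0.18, so differences well under 1.5-fold were resolved only for well-covered genes.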

Other observations

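Of the 257 called genes, 167 belonged to none of the lists. The genes below, except S100P of the 10 largest falls, were picked after their values were seen, so no statement is made about the groups they belong to. The gene of the secreted protein mammaglobin (SCGB2A2) had 54.9 ± 10.9 CPM against 121 ± 2.97 and 27.3 in DMSO (−1.17, SE 0.12, adjusted p = 3.1e-09 by edgeR), MUCL1 had a difference of −0.61 and AZGP1 of −0.58. DSCAM-AS1, a long non-coding RNA of luminal breast cancer, had 111 ± 16.1 CPM against 182 ± 2.94 (−0.69, SE 0.10, adjusted p = 8.3e-06). In ZR-75-1 DSCAM-AS1 was called in the opposite direction (0.47, interaction 1.16, adjusted p = 1.7e-07 by edgeR). Of the calcium-binding S100 family, S100A6 had 1864 ± 89.2 CPM against 2722 ± 29.9 (−0.55, SE 0.06, adjusted p = 2.5e-09), and S100P (−1.71) and S100A13 (−0.24) were lower too. The call of S100P was lost without 4 single inhibitor libraries. A second metallothionein, MT1F, was lower by −0.83.

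Among genes higher with abemaciclib, THBS1, the matricellular protein thrombospondin-1, had 56.1 ± 6.91 CPM with abemaciclib, 28.8 ± 4.34 with palbociclib and 13.3 in DMSO (0.96, SE 0.15, adjusted p = 2.8e-05 by edgeR). COL5A1, a fibrillar collagen gene, had 153 ± 4.46 CPM against 107 ± 5.49 (0.51, SE 0.09, adjusted p = 0.00042), while COL1A2 was at 0 counts in all 9 libraries. BASP1 (0.65), PMEPA1 (0.42), the actin cross-linkers ACTN1 (0.31) and FLNA (0.23), ENAH (0.24) and TAGLN2 (0.25) were higher as well. FLNA was higher with abemaciclib in CAMA-1 and lower in ZR-75-1 (−0.37), and the tubulin gene TUBA4A (0.61 and −0.54) and the ephrin receptor gene EPHB4 (0.40 and −0.31) were called in opposite directions in the same way.

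Among genes lower with abemaciclib, TCF19 had 10.1 ± 0.42 CPM against 25.7 ± 4.98 and 108 in DMSO (−1.37, SE 0.19, adjusted p = 1.4e-06 by edgeR). ZNF367 (−1.25), WDR76 (−1.03), PCLAF (−0.89), CDKN3 (−0.88), PSIP1 (−0.74), CENPU (−0.73), DONSON (−0.70) and KIFC1 (−0.69) were lower in the same comparison.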
